A study of Mus musculus with 27 samples.

Results

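The chemokine ligands are the genes for small secreted proteins that direct the migration of leukocytes, and 33 of them were followed here in mouse lung 24 h after whole-thorax irradiation. A gene was a member when a probe set carried a single symbol made of Ccl or Cxcl and a number, and Cx3cl1 and Xcl1 were added. Of the 18194 genes with such an annotation, 33 met this rule: 18 CC ligands, 13 CXC ligands and the 2 others. The rule reads gene names and no measured value, and the 33 members were read by 51 probe sets, of which the brightest per gene was used. Female mice aged 10 to 12 weeks, of the strains C57BL/6J, CBA/J and C57L/J, were sham-irradiated (0 Gy) or had the thorax exposed once to 320 kVp X-rays, at 12.5 Gy in some mice and 15 Gy in others. Strain and dose made 9 groups of 3 mice. RNA of the right upper lobe of each mouse was read on its own Affymetrix mouse genome array, so a replicate is 1 animal and nothing was pooled. The study designated C57L/J as radiation sensitive and C57BL/6J as radiation resistant. It names CBA/J as a strain whose lung response to radiation its authors had characterized before. All were inbred mice without a transgene in the labels. Each value below is the log2 of the deposited intensity, and each change is a log2 difference, irradiated minus sham, in which 1 is a doubling.

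Chemokines are grouped by the spacing of their first cysteines into CC, CXC, C and CX3C families, and they act on G protein-coupled receptors on the cells they attract. Some are induced in inflammation and draw monocytes, neutrophils or effector T cells into tissue, while others are made at steady state by epithelium, stroma or resident leukocytes and guide traffic through the healthy organ. In the lung, epithelium, alveolar macrophages, dendritic cells and endothelium are all known sources. In whole lung RNA, fewer cells of a type and less RNA per cell cannot be told apart.

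Several arrays carried transcripts of neighbouring tissue, and these come before the results. The 10 skeletal muscle genes of a list (Acta1, Ckm, Myh4 and others) had a mean log2 intensity more than 2 above the median array on 9 of 27 arrays, which lay in 5 groups: replicate 3 of C57L/J at 15 Gy, replicates 1 and 2 of CBA/J at 0 Gy, replicates 2 and 3 of CBA/J at 12.5 Gy, replicates 1 and 2 of C57BL/6J at 12.5 Gy and replicates 2 and 3 of C57BL/6J at 15 Gy. On 8 arrays the thymocyte gene Rag1, the thyroid gene Tg or the lymph node venule gene Glycam1 exceeded a log2 intensity of 6. Replicate 3 of C57L/J at 15 Gy had all of them, with Tg at 14.30 and Glycam1 at 12.38. The mean of 6 squamous epithelium genes was uneven too. It reached 10.94 in C57L/J at 15 Gy, 9.98 in CBA/J at 0 Gy and 10.21 in CBA/J at 12.5 Gy. In C57BL/6J it reached 9.95 at 12.5 Gy and 9.45 at 15 Gy, and in the other groups it was at most 5.32. No alternative chose arrays by these genes, and their part in the changes was not tested. Lung epithelium was present throughout: the mean of 5 type II cell genes lay between 13.32 and 14.10 and that of 3 club cell genes between 14.39 and 15.02. For the changes over the 3 strains, for the calls of single doses and for the levels by strain, a member's call that was lost without either set of arrays is described beside its result, as is a call gained over the 3 strains. Receptors, marker lists and changes pooled over dose within a strain were computed on all 27 arrays.

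The members lie on 8 chromosomes, with 12 on chromosome 11, 10 on chromosome 5 and 4 on chromosome 8. In the gene order of the RefSeq table for GRCm38.p6, Ccl22, Cx3cl1 and Ccl17 are direct neighbours on chromosome 8, Ccl5, Ccl9, Ccl6, Ccl3 and Ccl4 follow each other on chromosome 11, and Cxcl3, Cxcl15, Cxcl1 and Cxcl2 do so on chromosome 5. RefSeq promoters were found for 23 of the 33 members. The 250 bases before the start were searched on both strands for the NF-kB consensus, the interferon-stimulated element (TTTC, any 2 bases, TTTC) and a single p53 decamer. The NF-kB consensus occurred in 7 members (Ccl1, Ccl20, Ccl9, Cxcl1, Cxcl10, Cxcl2 and Cxcl3), and in 7.25% of all 32851 promoter windows of this length. The interferon element occurred in Cxcl10 and Cxcl14 and in 2.98% of all windows, and the p53 decamer in Ccl6, Cxcl13 and Cxcl9 and in 7.13% of all windows. The windows of Cxcl1, Cxcl2 and Cxcl3, neighbouring neutrophil attractants of which Cxcl2 rose after irradiation, and that of Ccl9, which rose too, are shown as RefSeq sequence of GRCm38.p6, 5′ to 3′ on the strand of the gene, with capitals for the bases that match the NF-kB consensus on either strand. The windows are chr5:90890995-90891244 on the plus strand for Cxcl1, chr5:90903649-90903898 on the plus strand for Cxcl2, chr5:90785851-90786100 on the plus strand for Cxcl3 and chr11:83578637-83578886 on the minus strand for Ccl9.
Cxcl1: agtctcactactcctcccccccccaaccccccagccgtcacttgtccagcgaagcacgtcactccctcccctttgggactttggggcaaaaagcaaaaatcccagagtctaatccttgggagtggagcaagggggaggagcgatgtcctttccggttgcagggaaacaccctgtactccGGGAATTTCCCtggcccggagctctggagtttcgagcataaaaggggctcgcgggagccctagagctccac
Cxcl2: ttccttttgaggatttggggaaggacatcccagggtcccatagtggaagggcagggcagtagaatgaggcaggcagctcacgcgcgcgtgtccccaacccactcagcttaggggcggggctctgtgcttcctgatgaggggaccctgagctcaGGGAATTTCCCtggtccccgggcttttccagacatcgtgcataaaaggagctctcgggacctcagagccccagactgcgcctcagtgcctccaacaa
Cxcl3: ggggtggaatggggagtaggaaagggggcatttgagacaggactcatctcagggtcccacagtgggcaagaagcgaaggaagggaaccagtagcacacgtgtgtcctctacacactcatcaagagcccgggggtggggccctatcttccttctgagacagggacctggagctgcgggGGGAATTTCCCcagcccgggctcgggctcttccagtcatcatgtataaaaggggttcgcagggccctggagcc
Ccl9: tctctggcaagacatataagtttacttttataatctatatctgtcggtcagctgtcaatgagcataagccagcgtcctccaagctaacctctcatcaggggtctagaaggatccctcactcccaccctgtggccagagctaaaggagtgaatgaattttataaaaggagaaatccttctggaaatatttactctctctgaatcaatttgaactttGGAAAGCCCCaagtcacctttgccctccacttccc
In Cxcl1, Cxcl2 and Cxcl3 the capitals cover the same run, in which overlapping matches lie on both strands, beginning 71, 97 and 73 bases before the start. The match of Ccl9 begins 35 bases before it. Of the 7 members with a match, Cxcl2 and Ccl9 were called over the 3 strains on all arrays and the others were not. The windows of Ccl8 and Cxcl12, which were called higher, held no match. A match describes these letters and not the binding of a factor.

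The first comparison asked which ligands differed between irradiated and sham lung over all 3 strains. Ligands of dendritic cells and lymphocytes (Ccl17, Ccl22, Ccl5, Xcl1) were among the 7 that fell, and Ccl9, Cxcl2 and Cxcl17 were among the 5 that rose. Thus 12 of 33 members, or 36.4%, passed an adjusted p of 0.05 (limma), against 14.3% of all 18194 genes. The 5 that rose stood against 5.83% of all genes called higher, and the 7 that fell against 8.49% called lower. At an unadjusted p under 0.05 stood 19 of 33, against 27.1%. The median change of the members was 0.25 and 20 of 33 were above 0, while the median of all genes was -0.01 with 47.8% above 0. The plot of the 33 changes by receptor group shows that calls of both signs fell within the 5 adjacent CC ligands of chromosome 11 and within the constitutive CXC ligands.

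**Figure D1:**
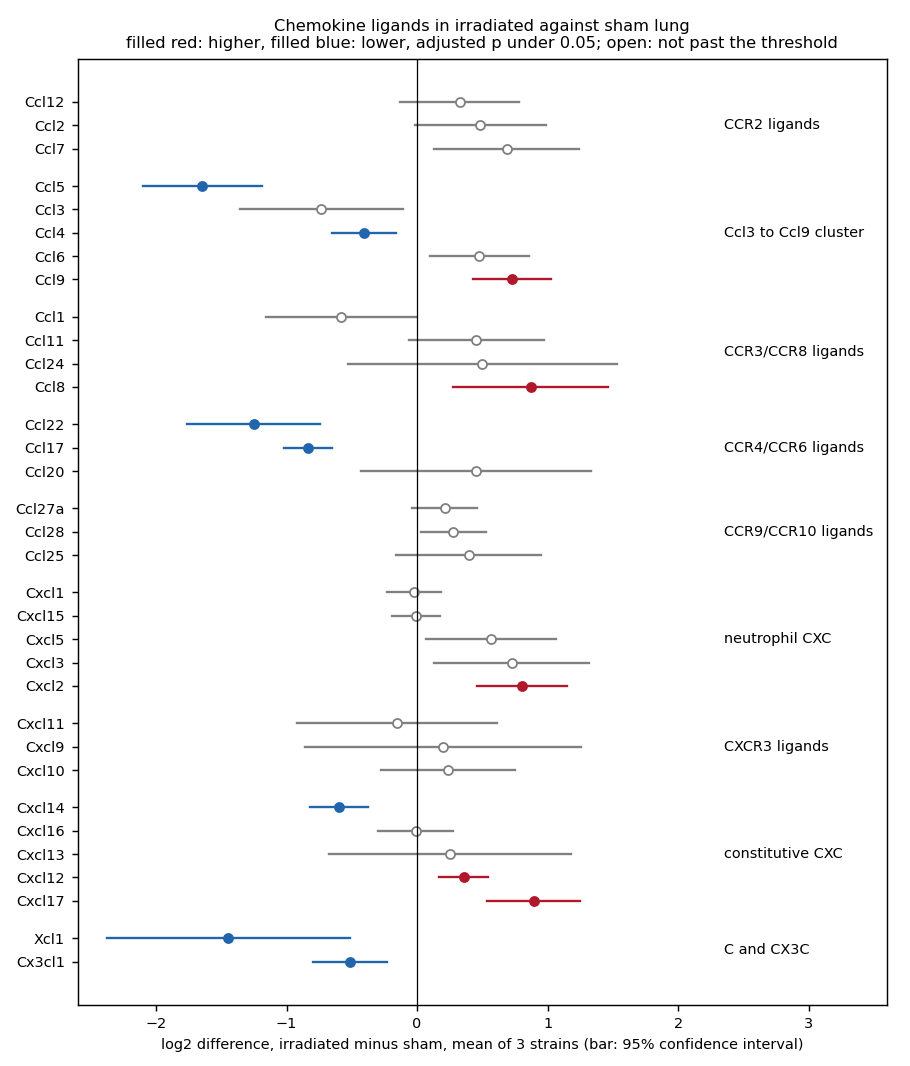
Change of each of the 33 chemokine ligands, irradiated minus sham, as the mean of 3 strains on the log2 scale (points) with 95% confidence intervals (bars), grouped by receptor or role; filled points passed an adjusted p of 0.05. Ccl5 had the lowest change at -1.64 and Cxcl17 the highest at 0.89.

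Ccl17 and Ccl22, the ligands of CCR4 that attract regulatory and type 2 helper T cells and are made by dendritic cells, both fell. Ccl17 had a log2 intensity of 6.86 to 8.81 (median 7.59) on the 9 sham arrays and 5.98 to 8.02 (median 6.83) on the 18 irradiated arrays. The strains differ in their level of Ccl17, so the separation shows within them: all 6 irradiated arrays lay under the lowest sham array of their strain in both C57 strains, and 3 of 6 did in CBA/J. The change was -0.84 ± 0.09 (SE), or 1.78-fold lower (adjusted p = 1.9e-06). Ccl22 lay between 5.82 and 9.26 (median 7.20) in sham lung and between 4.68 and 7.23 (median 5.99) in irradiated lung, a change of -1.25 ± 0.24 (adjusted p = 0.00142). Its irradiated arrays were all under the lowest sham array in C57BL/6J and in CBA/J, while those of C57L/J overlapped with sham. Ccl20, the CCR6 ligand placed in the same group, had a change of 0.45 ± 0.42 that did not pass the test. Cx3cl1, the membrane-bound fractalkine of endothelium and epithelium, lies between Ccl22 and Ccl17 on chromosome 8 and fell by 0.51 on the log2 scale (SE 0.14, adjusted p = 0.0138). Its sham arrays spanned 9.08 to 9.96 (median 9.51) and its irradiated arrays 8.49 to 9.74 (median 8.98), and 14 of the 18 irradiated arrays were under the lowest sham array of their strain. Without the 9 arrays with muscle transcripts the change of Cx3cl1 was -0.33 and no longer passed, and the call was also lost without the arrays with thymus, thyroid or lymph node transcripts (-0.40), while Ccl17 and Ccl22 passed in both cases. It was lost as well with each array centred on its median (-0.46, adjusted p = 0.0554), and it depended on the probe set. With the mean of the 4 probe sets of Cx3cl1 the change was -0.36 (adjusted p = 0.307), and with the most variable one -0.53 (adjusted p = 0.658). The second brightest had a median of 7.25 in sham lung and 7.24 in irradiated lung.

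Among the adjacent CC ligands Ccl5, Ccl9, Ccl6, Ccl3 and Ccl4 of chromosome 11, Ccl5 and Ccl4 fell and Ccl9 rose. Ccl5, also called RANTES and made by T and NK cells among others, spanned 10.34 to 11.55 (median 11.11) in sham lung and 8.06 to 10.54 (median 9.32) in irradiated lung. Of the 18 irradiated arrays, 17 were under the lowest sham array of their strain, and the other was replicate 3 of C57L/J at 15 Gy, the array with thymus and lymph node transcripts, at 10.54. The change was -1.64 ± 0.22, or 3.13-fold lower (adjusted p = 2.79e-05). Ccl4, a close relative made by activated macrophages and lymphocytes, fell by 0.41 (SE 0.12, adjusted p = 0.0243), from 7.75 to 8.30 (median 8.01) in sham lung to 6.84 to 8.04 (median 7.55). This call was lost with muscle content as a covariate (-0.37) and without the arrays with thymus, thyroid or lymph node transcripts (-0.35), and on leaving out any of 3 arrays in turn. Ccl3, its neighbour on chromosome 11, had a change of -0.73 ± 0.30 with an adjusted p of 0.112. Ccl9, a CCR1 ligand of rodent myeloid cells, lay between 8.88 and 9.66 (median 9.25) in sham lung and between 9.27 and 10.79 (median 10.03) in irradiated lung, a rise of 0.73 ± 0.14 or 1.66-fold (adjusted p = 0.00153). Here 17 of 18 irradiated arrays exceeded the highest sham array of their strain, and the second probe set of Ccl9 gave a change of 1.12. Ccl6, another CCR1 ligand next to Ccl9, had a change of 0.48 ± 0.18 (adjusted p = 0.0882). It passed without the muscle arrays (0.81, adjusted p = 0.0166) and with muscle content as a covariate (0.60, adjusted p = 0.0191). The changes of the 5 adjacent genes on chromosome 11, from Ccl5 through Ccl9, Ccl6, Ccl3 and Ccl4, differed in sign: -1.64, 0.73, 0.48, -0.73 and -0.41.

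Xcl1, or lymphotactin, is made by NK and CD8 T cells and attracts the dendritic cells that carry its receptor Xcr1. It was 5.25 to 7.10 (median 6.45) on sham arrays and 2.34 to 6.60 (median 5.22) on irradiated arrays, and the groups did not overlap within C57BL/6J or within CBA/J. The change was -1.45 ± 0.45, or 2.73-fold lower (adjusted p = 0.0336). In CBA/J sham lung the 3 values were 6.41, 6.47 and 6.45, whereas the 12.5 Gy values ranged from 2.59 to 5.09. Its mean over the 27 arrays was 5.47, under the log2 intensity of 6 of the filter on low values, so it has no value with that filter. With intensities under 32 set to 32 it passed with a smaller change of -0.93 (adjusted p = 0.00362), so the size of the fall depends on values near the low end of the arrays. The call was lost with each array centred on its median, with muscle content as a covariate (-1.33) and without the arrays with thymus, thyroid or lymph node transcripts (-1.40). It was also lost on leaving out any of 8 of the 27 arrays in turn, where the change ranged from -1.57 to -1.23.

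Of the 5 neutrophil-attracting CXC ligands, Cxcl2 was the 1 that passed the test over the 3 strains. Cxcl2, a CXCR2 ligand released by macrophages and epithelium, rose from 4.96 to 6.43 (median 5.65) in sham lung to 5.68 to 7.06 (median 6.36), a change of 0.80 ± 0.17 or 1.75-fold (adjusted p = 0.00219). Of the 6 irradiated arrays per strain, all exceeded the highest sham array in both C57 strains, and 3 did in CBA/J. Without the muscle arrays the change was 0.74 and the adjusted p 0.0633, the highest of any alternative for this gene, the lowest being 0.000936. Cxcl3 and Cxcl5 had changes of 0.73 ± 0.28 and 0.56 ± 0.24 that did not pass (adjusted p = 0.0972 and 0.126). Cxcl3 passed with muscle content as a covariate (0.89, adjusted p = 0.0329) and without the arrays with thymus, thyroid or lymph node transcripts (1.35, adjusted p = 0.0273). Cxcl1, which holds the same NF-kB run as Cxcl2 and Cxcl3, had a change of -0.02 with a 95% confidence interval of -0.23 to 0.19. Cxcl15, or lungkine, a product of lung epithelium, had one of -0.01 with an interval of -0.19 to 0.18. The second probe set of Cxcl15 had a median of 13.79 in sham lung and 13.45 in irradiated lung. Its change was -0.39 (limma over all 45101 probe sets, adjusted p = 0.0611), so the value near 0 holds for the brightest probe set.

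The constitutive CXC ligands moved in both directions. Cxcl14 is made by epithelium and fibroblasts of healthy tissue. On its brightest probe set all 18 irradiated arrays were under the lowest sham array of their strain. The same held for the receptors Ccr2, Cxcr3, Cxcr4, Cxcr5 and Cx3cr1, and the share of all genes was not counted. Cxcl14 spanned 9.66 to 10.99 (median 10.24) in sham lung and 8.79 to 10.09 (median 9.76) in irradiated lung and fell by 0.60 (SE 0.11, 1.51-fold lower, adjusted p = 0.000628). Its second probe set changed by -0.30 and did not pass (limma over all 45101 probe sets, adjusted p = 0.0918). The CBA/J means of that probe set were 8.96 at 0 Gy, 8.70 at 12.5 Gy and 9.11 at 15 Gy. Cxcl17, a ligand of mucosal epithelium, was 10.06 to 11.85 (median 11.26) on sham arrays and 11.29 to 12.41 (median 12.02) on irradiated arrays, and 16 of 18 irradiated arrays exceeded the highest sham array of their strain. It rose by 0.89 ± 0.17 or 1.86-fold (adjusted p = 0.00112). In CBA/J the sham values were 10.06, 10.33 and 11.26, and the first 2 of these arrays carried muscle transcripts. Without the muscle arrays the change was 0.56 and did not pass (adjusted p = 0.145, the highest of its alternatives, with a lowest of 0.00036). Cxcl13, the B cell attractant of lymphoid follicles, had a change of 0.25 ± 0.45 and Cxcl16 one of -0.01 ± 0.14.

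**Figure D2:**
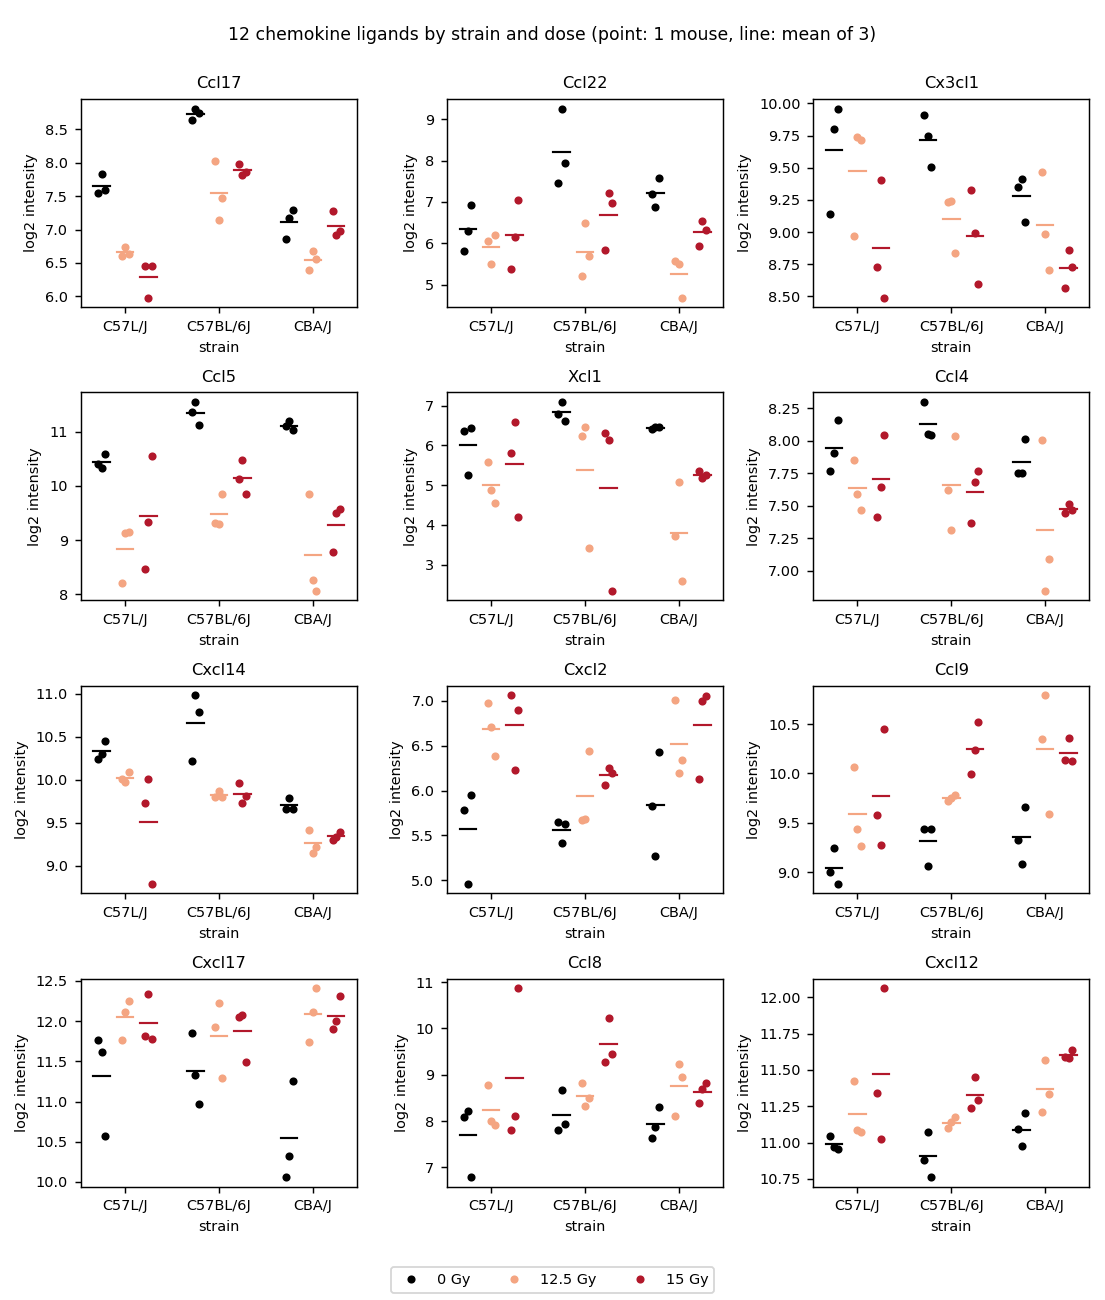
Log2 intensity of the 12 members that passed an adjusted p of 0.05 between irradiated and sham lung, by strain and dose; each point is 1 mouse and each line the mean of 3. On its brightest probe set, Cxcl14 was lower in all 18 irradiated lungs than in any sham lung of the same strain. For Ccl5 this held in 17, and the share of all genes was not counted. The second probe set of Cxcl14 changed by -0.30 and did not pass.

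Cxcl12, which is made by stroma and endothelium and holds CXCR4-bearing cells in place, gave opposite results from its probe sets. The brightest rose by 0.36 ± 0.09 (adjusted p = 0.00945), from 10.76 to 11.20 (median 10.97) in sham lung to 11.02 to 12.06 (median 11.32). The second had a sham range of 10.71 to 11.59 (median 11.12) and an irradiated range of 9.74 to 11.12 (median 10.28), a change of -0.74 with an adjusted p of 1.94e-05 over all 45101 probe sets. Over the 27 arrays the correlation of these 2 probe sets was -0.64, which describes 1 set of libraries. The third had a change of 0.10 (adjusted p = 0.875). With the mean of the 3 probe sets the change of the gene was -0.10. Cxcl12 is known to be spliced into forms with different 3′ ends, and which form each probe set reads was not examined. The call of the brightest probe set was lost without the muscle arrays (0.23) and without the arrays with thymus, thyroid or lymph node transcripts (0.24).

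**Figure D3:**
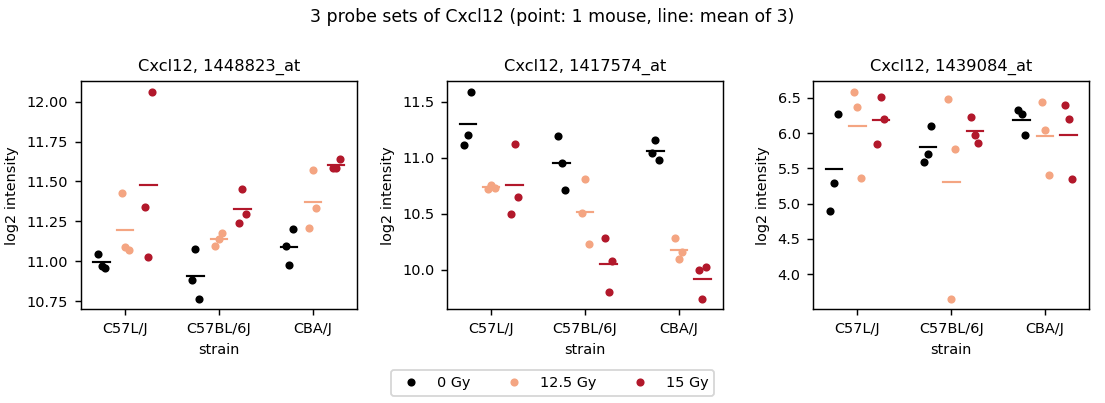
Log2 intensity of the 3 probe sets of Cxcl12 by strain and dose; each point is 1 mouse and each line the mean of 3. The left probe set rose by 0.36 and the middle one had a change of -0.74 over the same arrays, while the right one had a change of 0.10.

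Ccl8, in the mouse a CCR8 ligand made by macrophages, was the last of the 5 members that rose. It lay between 6.79 and 8.66 (median 7.94) in sham lung and between 7.81 and 10.87 (median 8.73) in irradiated lung, a change of 0.87 ± 0.28 (adjusted p = 0.0451). The highest value was that of replicate 3 of C57L/J at 15 Gy, and without the arrays with thymus, thyroid or lymph node transcripts the change was 0.33 and did not pass, nor did it without the muscle arrays (0.40). The call was lost on leaving out any of 17 of the 27 arrays in turn, where the change ranged from 0.71 to 0.96. The other members of this group, Ccl1, Ccl11 and Ccl24, did not pass, with changes of -0.58 ± 0.28, 0.45 ± 0.25 and 0.50 ± 0.49, although Ccl1 did without the muscle arrays (-0.87, adjusted p = 0.0302). Ccl1 and Ccl24 had mean log2 intensities of 2.56 and 3.29 over the 27 arrays.

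The other receptor groups gave no call in limma on all 27 arrays with the brightest probe set of each gene. The monocyte-recruiting CCR2 ligands Ccl2, Ccl7 and Ccl12 had changes of 0.48 ± 0.24, 0.69 ± 0.27 and 0.33 ± 0.22, all above 0, with adjusted p of 0.202, 0.0928 and 0.361. Of these 3, Ccl7 alone had an unadjusted p under 0.05 (0.0177). The interferon-induced CXCR3 ligands Cxcl9, Cxcl10 and Cxcl11, which attract effector T and NK cells, had changes of 0.20 ± 0.51, 0.24 ± 0.24 and -0.16 ± 0.37, and none had an unadjusted p under 0.05. The change of Cxcl9 turned with the arrays used: without the muscle arrays it was -1.29 ± 0.28 and passed (adjusted p = 0.0182). The epithelial and thymic ligands of CCR9 and CCR10, namely Ccl25, Ccl27a and Ccl28, had changes of 0.40 ± 0.27, 0.21 ± 0.12 and 0.28 ± 0.12, of which Ccl28 had an unadjusted p of 0.0316. Ccl25, a ligand of thymus and gut, was at 9.69 on replicate 3 of C57L/J at 15 Gy and at 8.89 on replicate 3 of CBA/J at 12.5 Gy, where Rag1 was at 10.67 and 8.2, and no other array exceeded 7.47. A second, dimmer probe set of Ccl25, with a mean of 6.35 against 7.21, rose by 0.48 (limma over all 45101 probe sets, adjusted p = 0.0357).

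The receptors for these ligands were read as a list of 17 signalling and 6 atypical receptors. Of the 17 signalling receptors, 9 fell and 1 rose at an adjusted p under 0.05 in limma, against 8.49% and 5.83% of all genes. Those that fell were Ccr2 of monocytes (-1.53 ± 0.13), Ccr6 (-1.48 ± 0.24) and Ccr7 (-1.42 ± 0.20) of lymphocytes and dendritic cells, Cxcr3 (-0.89 ± 0.13), Cxcr4 (-0.94 ± 0.14), Cxcr5 of B cells (-1.56 ± 0.13), Cxcr6 (-0.90 ± 0.18), Cx3cr1 (-1.24 ± 0.13) and Xcr1 (-1.29 ± 0.19), with adjusted p between 5.37e-08 and 0.00159. Ccr1, the receptor of Ccl9, rose by 0.44 ± 0.11 on the mean of the strains (adjusted p = 0.0135). Its change was 1.1 ± 0.20 in C57BL/6J (adjusted p = 0.00276), against 0.02 ± 0.20 in C57L/J and 0.19 ± 0.20 in CBA/J, which did not pass. The difference in response between strains had an unadjusted p of 0.00221 and an adjusted p of 0.521. Cxcr2, the receptor of Cxcl2, had a change of 1.14 ± 0.44 with an adjusted p of 0.0915, and Ccr4, that of Ccl17 and Ccl22, one of 0.16 ± 0.21 (adjusted p = 0.667). Xcl1 and Xcr1 both fell over the 3 strains, as did Cx3cl1 and Cx3cr1, although the calls of Xcl1 and Cx3cl1 were lost under some alternatives. For Cxcl12 the brightest probe set rose and the second fell, while its receptor Cxcr4 fell. Of the atypical receptors, Ackr4, which binds CCR7 ligands, fell (-0.49 ± 0.10, adjusted p = 0.00231) and the other 5 did not pass. The platelet chemokine Ppbp, whose symbol lies outside the rule, fell by 0.52 (SE 0.17, adjusted p = 0.0402), and Pf4 had a change of 0.05.

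Markers of the leukocytes that make or follow these ligands moved at the same time. All 4 B cell markers, 5 of 5 NK cell markers, 4 of 5 T cell markers and 4 of 6 dendritic cell markers fell. The calls of markers used an adjusted p under 0.05 in limma, by which 8.49% of all genes fell and 5.83% rose. The mean log2 intensity of the NK list was 8.25 to 9.04 on sham arrays and 6.78 to 8.13 on irradiated arrays, without overlap, and that of the dendritic cell list was 8.18 to 8.79 against 6.93 to 8.18. The T cell list spanned 7.29 to 8.51 in sham lung and 6.33 to 9.00 in irradiated lung, and the B cell list 9.30 to 10.04 against 6.64 to 9.15. Of 6 neutrophil markers, S100a8, S100a9 and Mmp8 rose, with list means of 7.15 to 9.16 on sham arrays and 7.72 to 10.83 on irradiated arrays. C1qb and Ms4a7 of interstitial macrophages rose and Csf1r fell, with list means of 9.84 to 10.14 and 9.85 to 10.83. Kdr and Tek fell among 5 endothelial markers, with list means of 11.75 to 12.58 in sham lung and 11.20 to 12.46 in irradiated lung. The alveolar macrophage list spanned 9.48 to 10.35 and 7.81 to 10.49, with a fall of Car4 alone among its 5 genes. The 5 type II cell, 3 club cell and 4 fibroblast markers gave no call in limma. Xcr1 and Ccr7 stand both in the dendritic cell list and among the receptors. Cxcr2 stands both in the neutrophil list and among the receptors. The part of these cell types in the changes of the ligands was not tested.

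Each dose was also compared with sham lung of its own strain, 3 arrays against 3. These 6 comparisons share their sham arrays in pairs. In C57L/J at 12.5 Gy, Ccl17 was the 1 member called, against 0.517% of all genes. Its sham values of 7.55, 7.84 and 7.59 lay above the irradiated values of 6.60, 6.74 and 6.63, a change of -1.0 ± 0.12 (adjusted p = 0.0471). Without the arrays with thymus, thyroid or lymph node transcripts, and with the spread of all remaining arrays, it was -1.01 and did not pass (adjusted p = 0.141). Ccl5 (-1.61) was the other member with an unadjusted p under 0.01, 2 of 33 against 4.53% of all genes, and 6 were under 0.05, against 13%. At 15 Gy in this strain no member was called by limma or by the random variance t test of the study's methods, where limma called 0% of all genes, and 5 members had an unadjusted p under 0.05, against 7.44% of all genes. The values of Ccl17 there were 6.45, 5.98 and 6.45, a change of -1.37 ± 0.19 with an unadjusted p of 0.000467, the 1 member under 0.01, against 1.86%.

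In C57BL/6J at 12.5 Gy, Ccl5 was the 1 member called, against 0.484% of all genes. Its sham values were 11.36, 11.55 and 11.12 and its irradiated values 9.31, 9.30 and 9.84, a change of -1.86 ± 0.21 (adjusted p = 0.0387). This call was lost without the muscle arrays, which leaves 1 irradiated array assumed to vary like the others (-1.50, adjusted p = 0.183), and without the arrays with thymus, thyroid or lymph node transcripts, which leaves 1 sham array (-2.06, adjusted p = 0.0585). With an unadjusted p below 0.01, the limit the study used, Ccl17 (-1.18), Ccl22 (-2.43) and Cxcl14 (-0.84) joined it, 4 of 33 members against 3.65% of all genes, and 8 were under 0.05, against 10.8%. At 15 Gy no member was called by limma or by the random variance t test, against 0.066% of all genes in limma, and 15 had an unadjusted p under 0.05, against 12.5%. The 6 members under 0.01, against 3.81%, were Ccl17 (-0.84) and Ccl5 (-1.19), which were lower, and Ccl8 (1.52), Ccl9 (0.94), Ccl12 (1.14) and Cxcl2 (0.61), which were higher. Ccl12, a monocyte attractant, had sham values of 6.59, 7.17 and 6.95 and values at 15 Gy of 8.45, 7.86 and 7.81.

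In CBA/J at 12.5 Gy no member was called by limma or by the random variance t test, against 0.033% of all genes in limma, and 10 had an unadjusted p under 0.05, against 10.6%. Ccl5 (-2.38), Ccl22 (-1.98), Xcl1 (-2.65) and Cxcl17 (1.54) were under 0.01, against 3.28%. At 15 Gy Ccl5 and Xcl1 were called, against 1.01% of all genes. Ccl5 had sham values of 11.11, 11.20 and 11.03 and irradiated values of 8.78, 9.49 and 9.57, a change of -1.83 ± 0.23 (adjusted p = 0.0416). Xcl1 had irradiated values of 5.35, 5.19 and 5.26, a change of -1.18 ± 0.10 (adjusted p = 0.0189). For both genes the irradiated values lay under all sham values. Without the muscle arrays, which leaves 1 sham array, neither passed (Ccl5 -1.75, adjusted p = 0.0692, and Xcl1 -1.19, adjusted p = 0.256). Without the arrays with thymus, thyroid or lymph node transcripts Xcl1 did not pass (adjusted p = 0.654) and Ccl5 did. Under an unadjusted p of 0.01, against 5.61% of all genes, stood 8 members: these 2, Cx3cl1 (-0.56), Ccl22 (-0.96), Cxcl13 (-1.57), Ccl9 (0.85), Cxcl17 (1.52) and Cxcl12 (0.51). Under 0.05 stood 14, against 15.6%. Cxcl13 was at 9.55, 9.48 and 10.26 in sham lung and at 8.30, 7.90 and 8.40 at 15 Gy. No pairwise call of a member held when any 1 of its 6 arrays was left out, which leaves 2 arrays in a group.

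Pooling both doses within a strain, against the sham arrays of that strain and with the spread of all 27 arrays, called 2 members in C57L/J (2% of all genes), 4 in C57BL/6J (3.53%) and 3 in CBA/J (4.09%). In C57L/J these were Ccl17 (-1.18 ± 0.15) and Cxcl2 (1.14 ± 0.29, adjusted p = 0.0428). In C57BL/6J they were Ccl17 (-1.01 ± 0.15), Ccl22 (-1.98 ± 0.42), Ccl5 (-1.53 ± 0.38) and Cxcl14 (-0.83 ± 0.19). In CBA/J they were Ccl5 (-2.11 ± 0.38), Cxcl17 (1.53 ± 0.30) and Cxcl5 (1.52 ± 0.41, adjusted p = 0.0407). A call in 1 strain does not show that the strains differ, and the test of that difference follows.

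No member differed in its response between strains at an adjusted p of 0.05 in limma, nor did any of the 18194 genes, and 4 members had an unadjusted p under 0.05, against 5.38% of all genes. Of these, 2 were under 0.01, against 1.39%. The lower p was that of Ccl17 (unadjusted p = 0.00167, adjusted p = 0.467), with a change of -0.31 in CBA/J against -1.18 in C57L/J and -1.01 in C57BL/6J. The other was Cxcl5, an epithelial neutrophil attractant (unadjusted p = 0.00919, adjusted p = 0.706), whose change was 1.52 in CBA/J, 0.67 in C57L/J and -0.49 in C57BL/6J. In CBA/J its sham values were 4.63, 3.90 and 5.43, the 12.5 Gy values 5.41, 6.46 and 6.05 and the 15 Gy values 5.66, 7.04 and 6.43. Of these, the sham arrays at 4.63 and 3.90 and the 12.5 Gy arrays at 6.46 and 6.05 carried muscle transcripts. In C57BL/6J the corresponding values were 5.51, 5.71 and 5.32, then 5.53, 5.46 and 4.17, then 4.29, 5.53 and 5.13, so that the doses overlapped with sham.

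Between the doses, no member differed at an adjusted p of 0.05 in limma over the 3 strains, nor did any of the 18194 genes. There were 7 members with an unadjusted p under 0.05, against 4.45% of all genes. Cxcl10, an interferon-induced ligand of CXCR3, was the 1 member under 0.01, against 0.786%, with 15 Gy above 12.5 Gy by 0.90 ± 0.28 (unadjusted p = 0.00457, adjusted p = 0.999). In C57L/J it was at 5.90, 7.30 and 6.83 after 12.5 Gy and at 7.87, 7.44 and 10.36 after 15 Gy, and the last value is from the array with thyroid and lymph node transcripts.

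The level of 4 members differed between strains when the doses were averaged, against 16.9% of all genes. On these arrays a strain difference in RNA and a sequence difference under a probe cannot be told apart. Ccl17 was highest in C57BL/6J, 1.19 ± 0.10 above C57L/J and 1.16 ± 0.10 above CBA/J (F test, adjusted p = 2.29e-08). Its sham values were 8.64, 8.81 and 8.75 in C57BL/6J, 7.55, 7.84 and 7.59 in C57L/J and 6.86, 7.17 and 7.29 in CBA/J, without overlap. Cxcl1 was highest in CBA/J, 0.57 ± 0.12 above C57L/J and 0.48 ± 0.12 above C57BL/6J (adjusted p = 0.00234). Sham values were 8.48, 8.39 and 8.74 in CBA/J, 7.90, 7.63 and 8.10 in C57L/J and 7.92, 8.07 and 8.17 in C57BL/6J. Cxcl14 was lowest in CBA/J, 0.67 ± 0.12 below C57BL/6J and 0.52 ± 0.12 below C57L/J on the log2 scale (adjusted p = 0.00119). Ccl28, a mucosal epithelial ligand of CCR10, was lowest in CBA/J too, by 0.48 ± 0.14 against C57BL/6J and 0.46 ± 0.14 against C57L/J (adjusted p = 0.0252). This call was lost without the muscle arrays (adjusted p = 0.338), with the most variable probe set (adjusted p = 0.109) and on leaving out any of 4 arrays of CBA/J in turn (adjusted p up to 0.0653), while its lowest adjusted p under an alternative was 0.0035. C57L/J and C57BL/6J differed in 1 of these 4 members, Ccl17, at an adjusted p of 0.05, against 5.34% of all genes.

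**Figure D4:**
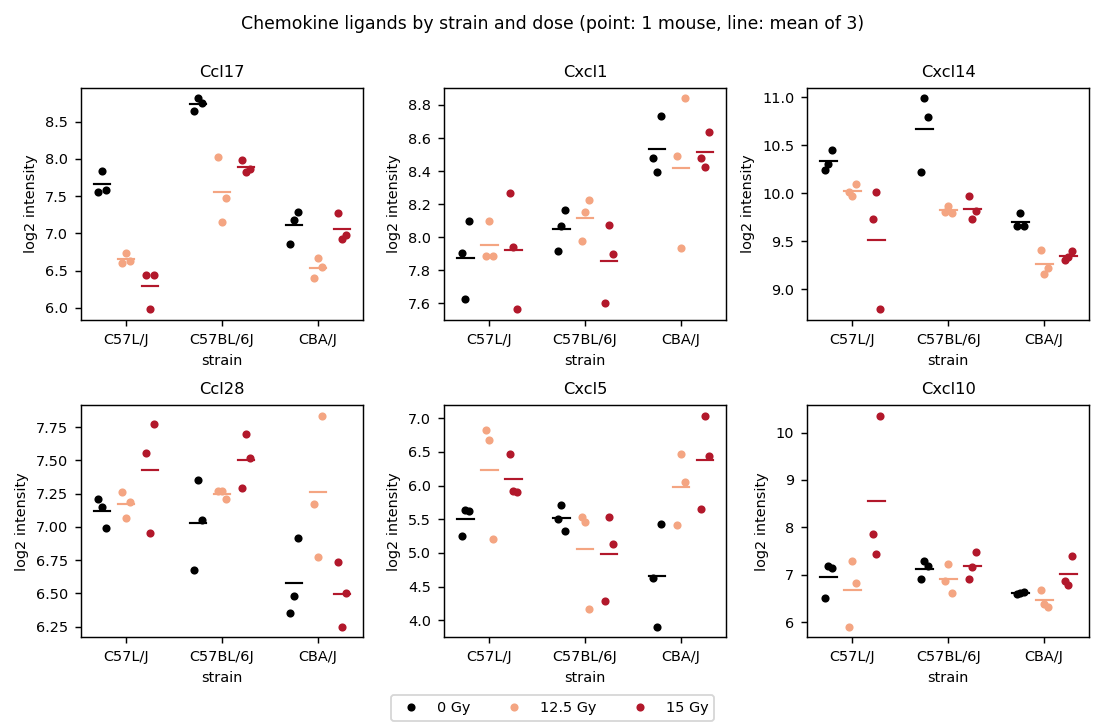
Log2 intensity of the 4 members whose level differed between strains (Ccl17, Cxcl1, Cxcl14, Ccl28) and of Cxcl5 and Cxcl10, by strain and dose; each point is 1 mouse and each line the mean of 3. Sham Ccl17 was at least 8.64 in C57BL/6J and at most 7.84 in the other strains, and 1 array of C57L/J at 15 Gy had Cxcl10 at 10.36.

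Within groups, some members varied together from mouse to mouse. Over the 27 arrays, after each group mean was removed, Ccl8 and Cxcl12 had a correlation of 0.85, Ccl7 and Cxcl11 one of 0.80, Ccl8 and Ccl11 one of 0.77, and Cxcl14 and Ccl7 one of -0.78. Much of this rested on 1 array: without replicate 3 of C57L/J at 15 Gy the same values were 0.61, 0.71, 0.54 and -0.47. The pair Ccl12 and Cxcl10 went from 0.65 to -0.11. Cxcl15 and Cxcl16 went from 0.67 to 0.80, and Ccl4 and Ccl5 from 0.62 to 0.56. Both genes of a pair were read on the same arrays, which differed in their content of other tissue, so the values describe the libraries.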

How the data were processed

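RNA of 27 right upper lung lobes was hybridised by the authors to Affymetrix mouse genome arrays, and the deposited table holds an intensity per probe set and array, made with Affymetrix Expression Console 1.1 per the submitters' processing notes. The study describes the data as quartile normalized and names no algorithm for summarising probes into probe sets. Every deposited array had a 2% trimmed mean of 500 and a median intensity between 127.55 and 167.04, so that scaling to a common mean had taken place before deposit. Arrays have no read depth, and precision is limited by their number.

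Intensities under 1 were set to 1 (37 to 111 values per array) and log2 was taken. Of 45101 probe sets, 34958 carried 1 symbol, 932 several and 9211 none, and the brightest of each gene over the 27 arrays gave 18194 genes. Each dose was compared with the sham arrays of its strain by limma 3.58.1 (R 4.3.3), and comparisons over strains used 9 group means over all 27 arrays. P-values were adjusted by Benjamini-Hochberg over all genes, with a threshold of 0.05, and an unadjusted p below 0.01, the limit the study used, was a second rule. A member was named with its test where it met either. Figures and tables were made with Python 3.11.15, pandas 2.3.3, numpy 2.4.6 and matplotlib 3.10.9, and the fits were tested on simulated data. The members and lists were chosen with earlier results of these data known. The alternative without arrays of thymus, thyroid or lymph node transcripts was chosen after seeing the data. Ligands of CCR7 were not analysed here as single genes, and 4 probe sets with a family symbol among several lie outside the rule.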

Additional observations from a re-analysis of the deposited data

Results flagged for a closer look

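The 4 probe sets that name a family member together with other genes entered no comparison. On the Ccl21 probe set, which reads a ligand of CCR7 in lymphatic vessels and lymph node, replicate 3 of C57L/J at 15 Gy had a log2 intensity of 12.99, above the highest sham array at 11.97. On the Ccl19 probe set, which reads the other CCR7 ligand, the same array had 10.21 and replicate 2 of C57BL/6J at 15 Gy had 9.78, both above the highest sham array at 9.18. The first array is the one with thymus, thyroid and lymph node transcripts, with Glycam1 at 12.38, and the second had Glycam1 at 10.52 and Tg at 13.46. The part of that tissue in these values was not tested.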

How the results depend on the processing

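Over the 3 strains, between 8 and 13 members were called under the alternatives, against 12, but not always the same genes: 7 of the 12 were shared without muscle arrays (Ccl1, Ccl6 and Cxcl9 gained), 9 with the covariate (Ccl6 and Cxcl3 gained) and 7 without thymus, thyroid or lymph node arrays (Cxcl3 gained). Ccl17, Ccl22, Ccl5, Ccl9 and Cxcl14 passed under all 11 of them, with adjusted p up to 0.0334, and 9 to 14 members were called with 1 array left out. These values changed sign: with the mean of probe sets Cxcl12 was at -0.10 over the strains and at -0.28 in CBA/J at 15 Gy, and with the most variable probe set Cxcl12 was at -0.21 and Cx3cl1 at 0.11 there. Pairwise counts were small and moved, and their 3 tissue alternatives take the spread of all arrays kept. In C57L/J at 12.5 Gy (1 call) they were 2 by the unadjusted p, the intensity trend, the low-value filter and without muscle arrays, and 0 with the most variable or mean probe set, quantile normalization, median-centring and without thymus, thyroid or lymph node arrays. In C57L/J at 15 Gy (0) they were 2 without muscle arrays and 1 by the unadjusted p, the muscle covariate, without thymus, thyroid or lymph node arrays and with all 27 arrays. In C57BL/6J at 12.5 Gy (1) they were 4 by the unadjusted p and with all arrays, 3 by the trend and in the 3 tissue alternatives, of which Ccl5, the 1 call on all arrays, was among the 3 only with the covariate, and 0 with the most variable probe set. In C57BL/6J at 15 Gy (0) they were 6 by the unadjusted p, 4 by the trend, 3 without thymus, thyroid or lymph node arrays, 2 with the covariate, and 1 with the filter, without muscle arrays and with all arrays. In CBA/J at 12.5 Gy (0) they were 4 by the unadjusted p, 3 with the covariate, without thymus, thyroid or lymph node arrays and with all arrays, and 1 with a floor of 32. In CBA/J at 15 Gy (2) they were 8 by the unadjusted p, 5 by the trend, 4 with the covariate and without thymus, thyroid or lymph node arrays, 1 with the mean probe set and median-centring, and 0 with the most variable probe set and without muscle arrays. By the unadjusted p, 1 member differed between doses and 2 in response by strain. The level differed between strains in 7 members with median-centring, in 8 without muscle arrays (without Ccl28) or with the covariate, in 9 without thymus, thyroid or lymph node arrays, and in 3 to 8 with 1 array left out. Pairwise calls were 0 to 0 with 1 array left out in C57L/J and C57BL/6J at 12.5 Gy and in CBA/J at 15 Gy. The causes were not tested.

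With the replicate number as a block, 11 members were called over the strains (Ccl8 was lost) and 0 in C57L/J at 12.5 Gy, C57BL/6J at 12.5 Gy and CBA/J at 15 Gy. The labels tie no number to a litter or day. Same-numbered samples deviated together (every correlation above 0.1) for 0 and 12.5 Gy in C57L/J (0.107 to 0.212) and CBA/J (0.349 to 0.392), and in no other pair of doses. Correlations of differently numbered samples were not computed, so whether the numbers mark pairs was not tested.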
